A study of Mus musculus with 11 samples.

Results

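The collagen chain genes of the mouse heart apex were followed after proton irradiation. They were taken as every named gene whose symbol reads Col, a number, the letter a and a number, and nothing more, which gave 44 of the 55414 gene IDs in each library. The values came from bulk poly(A) RNA sequencing of 11 libraries from the heart apex of C57BL/6 mice. NR libraries (n = 4) were from un-irradiated hearts. S-PRT libraries (n = 4) were from hearts that had received standard proton radiotherapy and F-PRT libraries (n = 3, replicates 2, 3 and 4) from hearts that had received FLASH proton radiotherapy, in which the dose is given at a very high rate. Both irradiated groups received 40 Gy to the apex as 1 dose and were sequenced 2 weeks later. The labels give no age or sex and do not say that the libraries were separate animals, so the p-values below measure the spread between libraries, part of which may be technical.

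Collagens are secreted as triple helices of 3 chains, each chain from its own gene or from copies of the same one. Fibrillar types such as I, III and V form the load-bearing fibres between heart muscle cells, type IV forms the sheet-like network of the basement membrane around muscle cells and capillaries, and type VI forms beaded filaments between them. In the heart, fibrillar chains are made mainly by fibroblasts, and their deposition in excess is known as fibrosis, a late effect of thoracic radiotherapy.

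Depth ran from 20758170 to 40136578 expected counts per library, and mitochondrial genes took 24.2% to 43.8% of them. The label of heart tissue held against marker genes fixed with the lists. The summed level of 8 cardiomyocyte markers was 41420 to 51380 CPM (counts scaled to library size, here with edgeR's TMM factors) across the libraries, while 5 skeletal muscle markers summed to at most 0.23 CPM and 5 adipocyte markers to at most 0.576 CPM. The 8 fibroblast markers lay between 810 and 1506 CPM in NR when summed, between 832 and 978 CPM in S-PRT, and between 416 and 1083 CPM in F-PRT. The 7 activated-fibroblast markers lay between 59.5 and 111 CPM in NR, between 104 and 241 CPM in S-PRT, and between 61.1 and 141 CPM in F-PRT. In bulk tissue, fewer cells of a type and less RNA per cell cannot be told apart.

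Of the 44 genes, 31 passed the filter on low counts (at least 10 counts in enough libraries to fill the smallest group) and were tested. They were 8 of 11 fibrillar chains, 6 of 6 basement membrane chains, 4 of 6 beaded-filament chains, 5 of 9 FACIT chains (which sit on the surface of fibres), 2 of 4 transmembrane chains, 2 of 2 multiplexins (basement membrane proteoglycans), 1 of 3 short-chain network chains, Col7a1 of anchoring fibrils, and Col26a1 and Col28a1. The other 13 were Col2a1, Col6a4, Col6a5, Col8a2, Col9a1, Col9a2, Col9a3, Col10a1, Col11a1, Col17a1, Col19a1, Col24a1 and Col25a1, several of them chains of cartilage or skin. Their mean level stayed at or below 0.16 TPM (a unit that also divides by effective gene length) in each group.

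Per length, type IV collagen led the family. Basement membrane chains held 40.2% of the summed collagen TPM and fibrillar chains 34.9%, followed by beaded-filament chains with 14.3% and multiplexins with 6.92%. In S-PRT 3 the first 2 classes stood the other way, at 108 TPM for basement membrane and 121 TPM for fibrillar chains. Col4a1 and Col4a2, the chains of the common type IV network, had NR means of 49.8 TPM ± 21.2 and 41.5 TPM ± 16.7 (SD, n = 4). Among fibrillar chains Col3a1 (type III) came first with 33.0 TPM ± 16.5, then Col1a2 with 19.1 TPM ± 10.4 and Col1a1 with 13.2 TPM ± 7.4 (the 2 chains of type I), and Col5a1 (type V, which sets fibre width) with 5.72 TPM ± 2.62. The spread of these neighbours between libraries overlapped, but within libraries the order was steadier: Col4a1 was above Col4a2, Col3a1 above Col1a2, Col1a2 above Col1a1 and Col1a1 above Col5a1 in 11 of 11 libraries. Col4a2 was above Col3a1 in 8 of 11 libraries, and Col6a2 above Col6a1 in 10 of 11. Type VI chains Col6a2 and Col6a1 were at 17.1 TPM ± 8.22 and 15.9 TPM ± 6.92, and the multiplexin Col15a1 was at 13.2 TPM ± 6.24.

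The summed collagen level varied more within groups than between them. It was 161, 132, 287 and 354 TPM in NR libraries 1 to 4, 141, 163, 305 and 317 TPM in S-PRT libraries 1 to 4, and 235, 94.1 and 226 TPM in F-PRT libraries 2, 3 and 4. The group means were 233 TPM ± 105 (SD, n = 4), 231 TPM ± 92.4 (n = 4) and 185 TPM ± 79.1 (n = 3), and the groups overlapped. F-PRT 3 was the lowest library for 18 of the 31 tested genes and NR 2 for 6, while S-PRT 3 was the highest for 13.

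**Figure D1:**
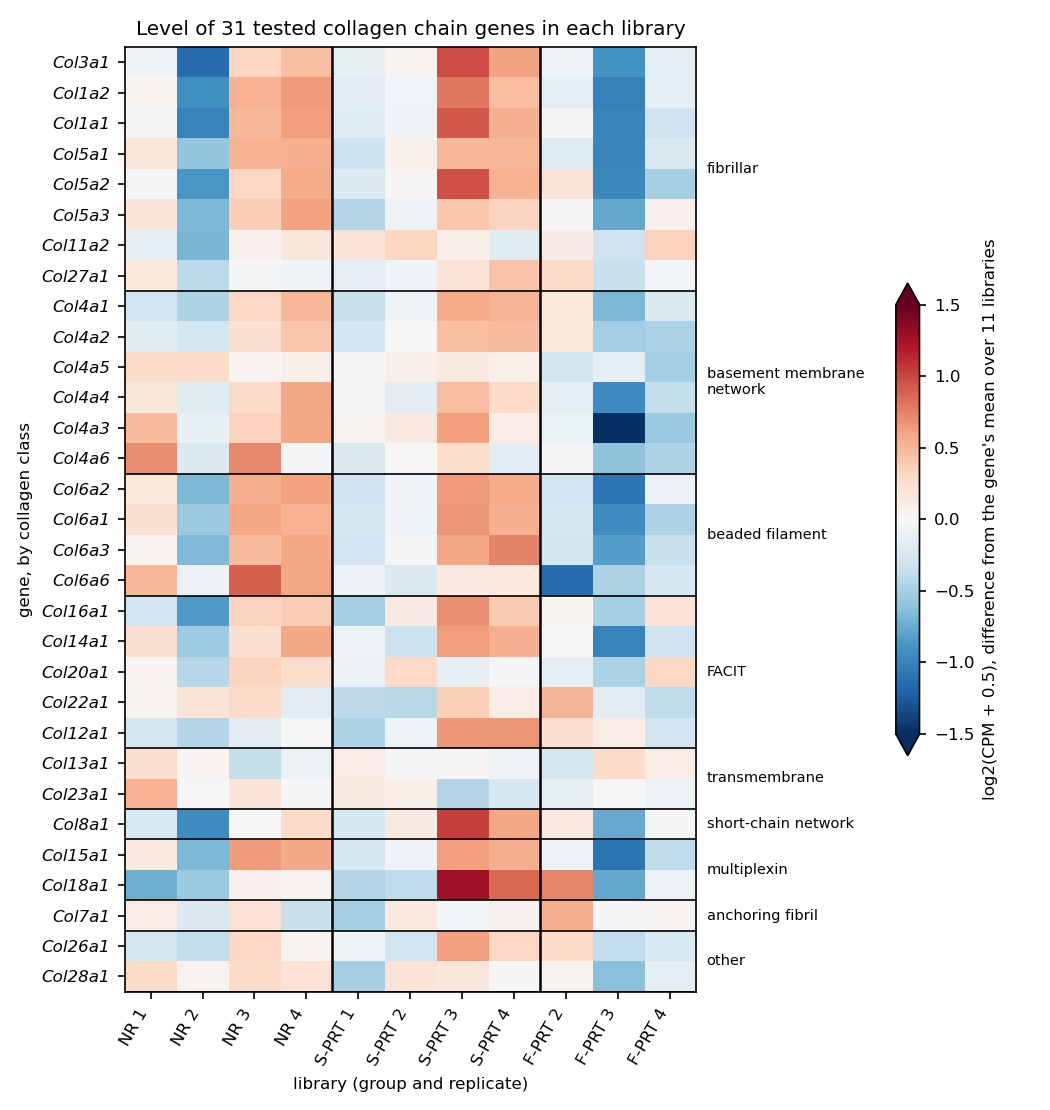
Each row is 1 of the 31 tested collagen genes, ordered by class, and each column 1 library; colour is log2(CPM + 0.5) minus the gene's own mean over the 11 libraries. NR 2 and F-PRT 3 are blue and S-PRT 3 is red for most fibrillar, beaded-filament and multiplexin chains, while the Col4a5 row has its lowest values in the 3 F-PRT libraries.

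Of the other 30 tested chains, 19 followed Col1a1 from library to library with a correlation of at least 0.7, and 11 had one under 0.6. Across the 11 libraries, which share depth and group as well as tissue, the Pearson correlation of log2(CPM + 0.5) with Col1a1 was 0.99 for Col1a2, 0.98 for Col3a1 and 0.98 for Col5a2. It was 0.96 for Col15a1 and 0.93 for Col4a1, so the shared pattern crossed classes. Col4a5, a type IV chain known for its loss in Alport syndrome in humans, stood at 0.18, and Col6a6, a long chain of type VI, at 0.49. Col7a1 stood at 0.12, and the transmembrane chains Col23a1 and Col13a1 at −0.30 and −0.52. Col7a1, Col23a1 and Col13a1 had only 5 to 26, 19 to 46 and 11 to 24 counts a library, which limits any correlation. Col4a5 had 363 to 1078 counts and Col6a6 32 to 234.

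Upstream sequence is shown for a pair of fibrillar chains that moved together (Col1a2 and Col3a1) and for the 2 chains that departed from them and were lower in F-PRT (Col4a5 and Col6a6). The sequences are RefSeq's, on build GRCm38.p6, read 5′ to 3′ on the strand of the gene, and each ends at the base before the outermost annotated start of its gene. Capitals mark a match to the CCAAT box, to the TATAAA motif or to the GC box GGGCGG, on either strand and with no overlap between motifs.
Col1a2 (chr6:4505368-4505617, plus strand): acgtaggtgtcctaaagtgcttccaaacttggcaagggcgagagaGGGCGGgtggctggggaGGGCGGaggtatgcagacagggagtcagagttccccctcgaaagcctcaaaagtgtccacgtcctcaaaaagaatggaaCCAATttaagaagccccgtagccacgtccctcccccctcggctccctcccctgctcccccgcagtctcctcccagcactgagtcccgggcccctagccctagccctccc
Col3a1 (chr1:45311288-45311537, plus strand): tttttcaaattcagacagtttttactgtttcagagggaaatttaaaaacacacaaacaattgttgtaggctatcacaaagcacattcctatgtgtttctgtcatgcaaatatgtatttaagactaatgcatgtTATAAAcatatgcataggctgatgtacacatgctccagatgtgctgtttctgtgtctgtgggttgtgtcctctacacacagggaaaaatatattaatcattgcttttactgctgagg
Col4a5 (chrX:141475169-141475369, plus strand): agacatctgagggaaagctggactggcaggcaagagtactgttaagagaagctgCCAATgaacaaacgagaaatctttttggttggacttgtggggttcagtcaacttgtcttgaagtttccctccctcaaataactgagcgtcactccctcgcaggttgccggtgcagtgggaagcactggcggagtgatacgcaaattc
Col6a6 (chr9:105828247-105828335, minus strand): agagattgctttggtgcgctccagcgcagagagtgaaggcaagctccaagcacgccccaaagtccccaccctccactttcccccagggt

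The 4 windows shared no motif set, but they differed in length (250, 250, 201 and 89 bases). Col1a2 carried CCAAT starting 109 bases upstream of the start and GGGCGG at 205 and 188 bases upstream, Col3a1 carried TATAAA at 117 bases, Col4a5 carried CCAAT at 147 bases, and the 89 bases of Col6a6 carried none of the 3. Of 32851 promoter windows of 250 bases in the same table, 33.8% held CCAAT, 12.4% held TATAAA and 32.7% held GGGCGG. In the first 201 bases of those windows, the length shown for Col4a5, 28.6% held CCAAT. The table covered 35 of the 44 collagen genes with 38 windows, of which 13 held CCAAT, 5 held TATAAA and 22 held GGGCGG. A match is a description of the letters and shows no bound factor.

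After standard irradiation no tested collagen chain was called different from un-irradiated apex. With edgeR's quasi-likelihood test and Benjamini-Hochberg adjustment over 14556 genes, 0 of 31 passed an adjusted p of 0.05, against 1.29% of all genes (188), of which 0.872% were higher and 0.419% lower. DESeq2 also called 0, and at an unadjusted p under 0.05 there was 1 of 31 (Col6a6), against 18.3% of all genes. Fitted values were above 0 for 19 and below 0 for 12, with a median log2 fold change of 0.07 beside 0.01 for all genes. In CPM, 0 of the 31 had S-PRT and NR libraries that did not overlap, where 7.34% of all genes lay wholly higher and 6.71% wholly lower in S-PRT.

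The highest fitted values in S-PRT were those of Col12a1, Col18a1 and Col8a1, and none was called. Col12a1, a FACIT chain that bridges fibres, was at 0.281, 0.187, 0.326 and 0.422 CPM in NR and at 0.171, 0.388, 0.954 and 0.971 CPM in S-PRT. S-PRT 3 and 4 were above every NR library and S-PRT 1 below every one, and the log2 fold change of 1.05 ± 0.49 (SE) had an adjusted p of 0.28 by edgeR. Col18a1, the multiplexin whose end fragment is endostatin, was at 4.83, 5.50, 8.71 and 8.59 CPM in NR and at 6.00, 6.26, 20.8 and 15.6 CPM in S-PRT. Its groups overlapped through S-PRT 1 and 2, and the log2 fold change was 0.82 ± 0.41 (adjusted p = 0.31, edgeR). Col8a1, a short-chain network collagen of vessel walls, was at 13.1, 7.85, 15.4 and 18.9 CPM in NR and at 12.8, 17.0, 32.1 and 23.2 CPM in S-PRT, with a log2 fold change of 0.62 ± 0.30 (adjusted p = 0.30, edgeR).

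The fibrillar chains that define fibrosis showed smaller values. Col3a1 was at 154, 73.0, 202 and 221 CPM in NR and at 149, 166, 318 and 245 CPM in S-PRT, a log2 fold change of 0.43 ± 0.32 (adjusted p = 0.51, edgeR). Col1a1 was at 67.5, 34.0, 96.9 and 106 CPM in NR and at 60.4, 66.1, 130 and 99.0 CPM in S-PRT, a log2 fold change of 0.22 ± 0.33 (adjusted p = 0.77, edgeR). In both genes S-PRT 3 was the highest library and NR 2 the lowest, and the groups overlapped. Over the 8 tested fibrillar chains, 6 had values above 0 and 2 below, with a median of 0.23. Col1a2 and Col5a1 were at 0.13 ± 0.31 and 0.00 ± 0.26, and the type IV chains Col4a1 and Col4a2 at 0.14 ± 0.26 and 0.12 ± 0.21.

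NR and S-PRT libraries of the same number deviated together from their group means (correlations of 0.18 to 0.36 over 11107 genes). However, NR 2, NR 3 and NR 4 each correlated more with an S-PRT library of another number (0.443, 0.369 and 0.354). The correlations thus do not single out the replicate number as a pairing. A fit with that number as a block was set beside these values. In that fit, 1371 of 14069 genes passed (9.74%), and so did 2 of the collagen genes. Col18a1 was higher in S-PRT (log2 fold change 0.71, adjusted p = 0.032, edgeR with the block) and Col6a6 was lower (−0.56, adjusted p = 0.038). Without the block Col6a6 was at −0.57 ± 0.25 (adjusted p = 0.24).

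After FLASH irradiation 4 of the 31 tested chains (12.9%) were lower than in NR and 0 were higher, where 8.67% of all genes were lower and 10.8% higher by the same test. The 4 were Col4a3, Col4a4 and Col4a5, the type IV chains that together build the specialised basement membrane network known best from kidney, and Col6a6. Fitted values were below 0 for 25 of the 31 and above 0 for 6, with a median of −0.39 beside 0.03 for all genes. S-PRT and F-PRT were both set against the same NR libraries, so their values are not independent of each other.

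Col4a5 gave the tightest difference. Its CPM in NR libraries 1 to 4 was 27.5, 27.3, 23.0 and 23.9. It was 22.1, 24.1, 24.6 and 23.7 in S-PRT libraries 1 to 4, and 18.4, 20.2 and 15.7 in F-PRT 2, 3 and 4. Each F-PRT library lay below each library of the other groups. The log2 fold change against NR was −0.49 ± 0.10 (adjusted p = 0.011, edgeR), with a mean of 18.1 CPM ± 2.28 (SD, n = 3) against 25.4 CPM ± 2.30 (n = 4). In S-PRT it was −0.10 ± 0.09 (adjusted p = 0.59).

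Col6a6 had the largest called difference. In NR its CPM was 4.87, 3.07, 6.58 and 5.20. S-PRT libraries had 3.09, 2.76, 3.69 and 3.70 CPM, and F-PRT libraries 1.22, 2.22 and 2.68 CPM. Again each F-PRT library lay below each of the others, with F-PRT 2 lowest. The log2 fold change against NR was −1.27 ± 0.28 (adjusted p = 0.013, edgeR), a fold of 0.415. These 2 genes were the collagens whose F-PRT and NR libraries did not overlap in CPM, where 13.9% of all genes lay wholly lower and 17.5% wholly higher in F-PRT.

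Col4a3 and Col4a4 were called with wider spread. Col4a3 was at 3.06, 1.87, 2.76 and 3.29 CPM in NR and at 1.90, 0.389 and 1.24 CPM in F-PRT, where F-PRT 3 rested on 7 counts. Its groups overlapped through NR 2 and F-PRT 2, and the log2 fold change was −1.18 ± 0.37 (adjusted p = 0.041, edgeR). Col4a4 was at 5.27, 4.00, 5.75 and 7.15 CPM in NR and at 4.14, 2.17 and 3.48 CPM in F-PRT, overlapping through the same 2 libraries, with a log2 fold change of −0.75 ± 0.25 (adjusted p = 0.049, edgeR). Col4a3 and Col4a4 lie head to head on opposite strands and their annotated starts overlap. The kit was directional, and use of strand in the counting was not given in the sources used here. Expected counts of Col4a3 were whole in 6 of 11 libraries. In the rest the estimate split some reads between Col4a3 and other genes. Those of Col4a4 were whole in 11 of 11 libraries.

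Col4a5 and Col6a6 passed in each of the 11 fits that left out 1 library, with log2 fold changes of −0.58 to −0.40 and of −1.56 to −1.0. Col4a3 passed in 4 of those fits (without NR 2, S-PRT 1, S-PRT 3 or F-PRT 2) and Col4a4 in 3 (without NR 2, S-PRT 3 or F-PRT 2). Neither passed without F-PRT 3, where 2 of the 33 chains tested in that fit were called. Over all genes, 3784 were called in that fit, beside 2841 in the main fit. With only the NR and F-PRT libraries in the fit, Col4a5 and Col6a6 passed and Col4a3 and Col4a4 did not (adjusted p = 0.071 and 0.064, edgeR). None of the 4 passed when libraries were scaled by their total alone, when the trend with gene length was removed, or when TPM was tested with limma. The number called was 5 with DESeq2, which added Col6a1 (23.3% of all genes called), and 8 with no count filter, which added Col15a1, Col5a1, Col6a1 and Col6a3 (10.2% of all genes called).

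**Figure D2:**
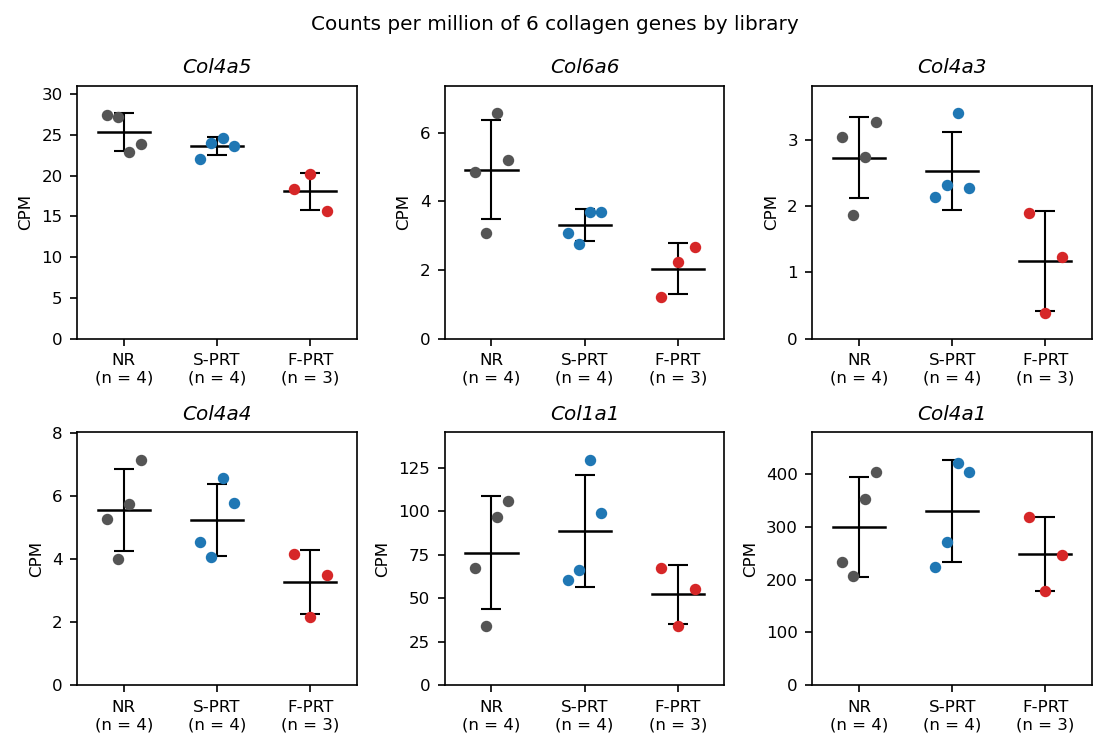
CPM of 6 collagen genes, 1 point per library; the long bar is the group mean and the whiskers the SD. The 3 F-PRT points of Col4a5 (15.7 to 20.2 CPM) and Col6a6 (1.22 to 2.68 CPM) lie below every NR and S-PRT point, whereas those of Col1a1 lie within the NR range; for Col4a4 F-PRT 3 and 4, and for Col4a1 F-PRT 3 alone, lie below every NR and S-PRT point.

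The abundant chains were not called in F-PRT. Col1a1 was at 67.4, 34.1 and 55.0 CPM in F-PRT, a log2 fold change of −0.54 ± 0.36 against NR (adjusted p = 0.30, edgeR), with F-PRT 3 level with NR 2. Col1a2 was at −0.57 ± 0.34, Col3a1 at −0.33 ± 0.35 and Col5a1 at −0.65 ± 0.28. Type VI chains Col6a1, Col6a2 and Col6a3 were at −0.79 ± 0.28 (adjusted p = 0.068), −0.67 ± 0.32 (adjusted p = 0.15) and −0.67 ± 0.31 (adjusted p = 0.14, edgeR). Col4a1 and Col4a2 were at −0.27 ± 0.28 and −0.32 ± 0.23. The FACIT chains Col14a1 and Col16a1 were at −0.61 ± 0.32 and −0.02 ± 0.33, and Col15a1 at −0.71 ± 0.32 (adjusted p = 0.13). At the low end, Col4a6 had 25, 8, 35 and 19 counts in NR and 11, 2 and 6 in F-PRT (log2 fold change −1.5 ± 0.56, adjusted p = 0.075). Col28a1 had 11, 8, 15 and 18 counts in NR and 8, 0 and 7 in F-PRT, and its adjusted p was 0.24.

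Fibroblast markers followed the collagen level in part. Their summed level in F-PRT 2, 3 and 4 was 521, 416 and 1083 CPM, against 1415, 810, 1471 and 1506 CPM in NR libraries 1 to 4, and 2 of the 8 (Pdgfra and Gsn) were lower in F-PRT by edgeR, where 8.67% of all genes were. NR 2 and F-PRT 3 were the lowest of their groups both in these markers and in the summed collagen level. In S-PRT libraries 1 to 4 the markers were at 978, 948, 915 and 832 CPM, so S-PRT 3 and 4, with the higher collagen sums, had the lower marker sums, and F-PRT 4 was above each S-PRT library. The 7 endothelial markers summed to 358, 350, 463 and 534 CPM in NR libraries 1 to 4. They summed to 258, 312, 365 and 394 CPM for S-PRT 1 to 4, and to 328, 265 and 483 CPM for F-PRT 2, 3 and 4, again lowest in NR 2 and F-PRT 3 within those groups. In F-PRT against NR 1 of the 7 endothelial markers was called higher and 0 lower by edgeR. Of the 6 tested activated-fibroblast markers 1 was called higher and 0 lower, where 10.8% of all genes were higher. The 7 pericyte and smooth muscle markers summed to 586 to 674 CPM in NR, 434 to 545 in S-PRT and 377 to 554 in F-PRT. Each irradiated library thus lay below each NR library. The 6 macrophage markers summed to 52.3 to 89.0, 74.3 to 164 and 68.6 to 131 CPM in the same order. For the 5 epicardial and mesothelial markers the sums were 2.02 to 14.3, 1.80 to 4.00 and 2.22 to 4.06 CPM. The part of cell content in the collagen values was not tested.

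Collagen genes are long, and long genes as a class had lower values in F-PRT. Of the 31 tested chains, 16 fell in the longest 10th of all tested genes by effective length (the length over which a read can start) and 7 in the next. Against NR, the median log2 fold change of all tested genes went from 0.43 in the shortest 10th to −0.35 in the longest, where 30.8% were lower and 1.17% higher in F-PRT. Beside each chain stand the tested genes within 10% of its effective length, whose median was −0.29 (the median over the 31 chains). The chains themselves were below their own neighbour median in 20 of 31 cases. Over all 31 chains the median difference was −0.10 on the log2 scale. Neighbours of Col4a5 had a median of −0.31 and 26.9% of them were lower, and neighbours of Col6a6 had −0.37 and 29.9%. For Col4a3 and Col4a4 the neighbour medians were −0.38 and −0.44, with 34.3% and 38.5% lower. The 4 chains called lower were all among the 16 in the longest 10th, where 30.8% of all tested genes were lower. In the fit with the length trend removed (3.39% of all genes called), Col6a6 was at −0.85 (adjusted p = 0.14) and Col4a5 at −0.20 (adjusted p = 0.15, edgeR).

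In S-PRT against NR the neighbours ran the same way with a smaller slope, with a median of −0.11 over the 31 chains. There the chains lay above their neighbours in most cases, with 7 of 31 below and a median difference of 0.11.

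**Figure D3:**
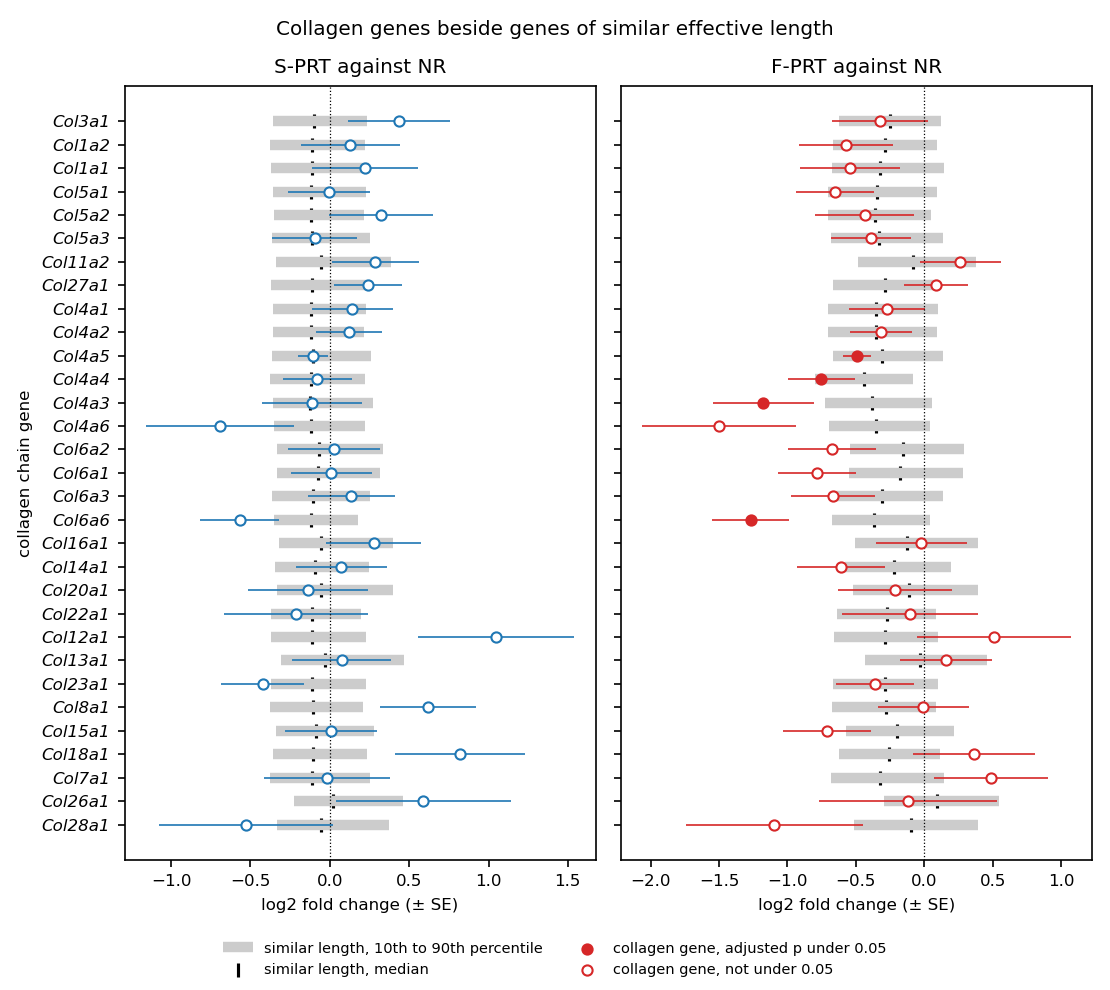
Log2 fold change against NR of the 31 tested chains (circles, with SE; filled where the adjusted p is under 0.05) beside tested genes within 10% of the same effective length (grey bar from the 10th to the 90th percentile, black tick at the median). In F-PRT 30 of 31 ticks lie left of 0 although 30 of 31 bars cross it, and 9 chains lie left of their bars (Col4a3, Col4a6, Col6a1, Col6a2, Col6a3, Col6a6, Col14a1, Col15a1 and Col28a1) and 3 right of them; in S-PRT no circle is filled.

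The effective length itself, which RSEM weights by the isoforms it assigns reads to, differed for some chains. For Col15a1 it was 4728, 4586, 4940 and 4656 bases in NR. S-PRT libraries had 3585, 3656, 4098 and 4696 bases, and F-PRT libraries 3593, 3708 and 2232 bases. Each F-PRT library was below each NR library, and F-PRT 4 was lowest. For Col4a5 it was 6046, 5957, 5856 and 5606 bases in NR and 5064, 4948 and 3984 bases in F-PRT. By a rule chosen after the values were seen (no overlap and a mean lower by at least 10%), 4 of 31 chains were shorter in F-PRT than in NR (Col4a5, Col5a1, Col15a1 and Col16a1), against 4.55% of all tested genes. In S-PRT 0 chains were shorter and 0 longer than in NR, against 0.804% and 0.735% of all. One chain, Col23a1, met the rule for longer in F-PRT, where 5.72% of all genes did, although 2 of its 4 NR libraries differed from F-PRT by a few bases.

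The 2 units differed for chains with such a shift, and also for some chains without one. Col4a5 fell in CPM but in TPM was at 3.46, 4.01, 3.91 and 4.94 in NR and at 3.73, 3.00 and 4.28 in F-PRT, where the groups overlapped. With effective length as an offset in the count model its log2 fold change was −0.15 (adjusted p = 0.32, edgeR). Col15a1 had the same mean TPM in NR and F-PRT (13.2 ± 6.24 and 13.3 ± 7.68). Col6a6 has a single effective length (8546 to 8582 bases over the 11 libraries), and with the offset it stayed at −1.27 (adjusted p = 0.016). Col1a1 was likewise steady, at 5695 to 5731 bases. In TPM, however, Col6a6 was at 0.43, 0.31, 0.77 and 0.70 in NR and at 0.15, 0.19 and 0.34 in F-PRT. Its groups thus overlapped through NR 2 and F-PRT 4. Mean Col1a1 was 76.1 CPM in NR and 88.8 CPM in S-PRT, but 13.2 and 13.1 TPM.

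**Figure D4:**
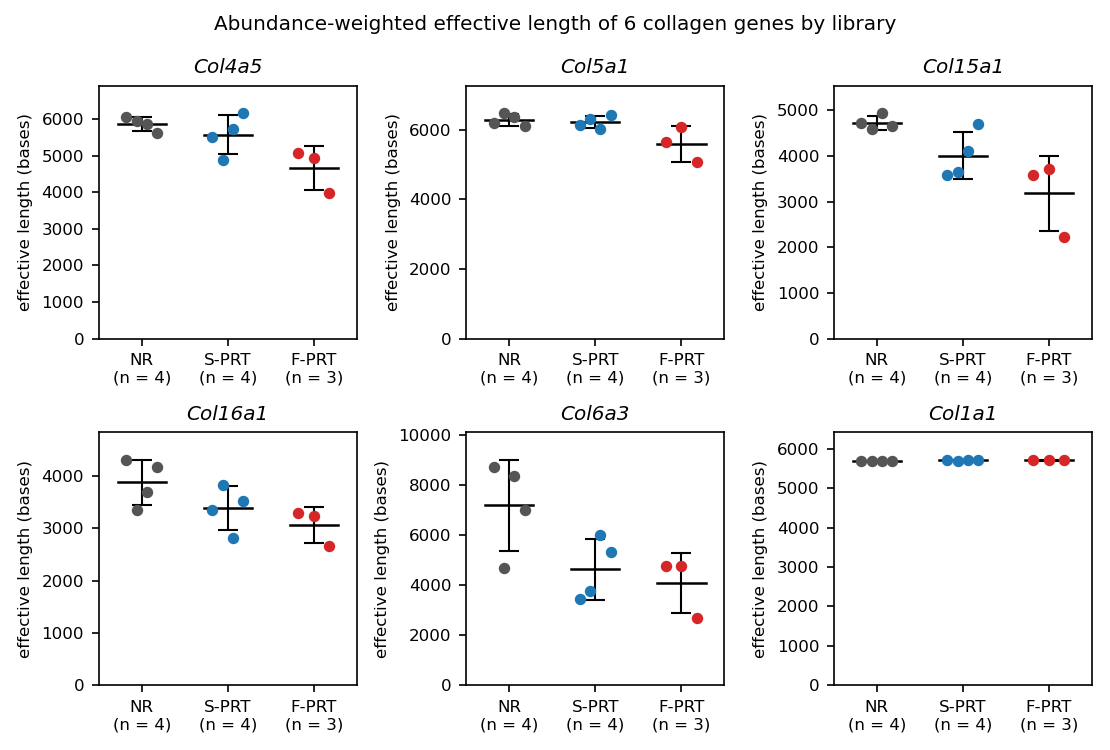
Effective length in bases of 6 collagen genes, 1 point per library, with the group mean (bar) and SD (whiskers). For Col4a5, Col5a1, Col15a1 and Col16a1 the 3 F-PRT points lie below the NR points, with F-PRT 4 lowest; Col6a3 ranges from 2679 to 8708 bases and overlaps between groups, and Col1a1 is flat.

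Set directly against each other, the 2 irradiated groups gave 0 calls among the 31 chains, and 0% of all 14556 genes were called by edgeR. At an unadjusted p under 0.05 there were 9 chains, against 15.9% of all genes, and DESeq2 called 0 of the chains and 134 genes in all. F-PRT values were below S-PRT for 27 of 31 chains, with a median log2 fold change of −0.63 beside 0.00 for all genes and −0.18 for genes of similar length. Over the 8 tested fibrillar chains the median was −0.67 with 8 of 8 below 0, and over the 4 tested type VI chains it was −0.75 with 4 of 4 below 0. The smallest p was for Col4a5 (log2 fold change −0.39 ± 0.10, adjusted p = 0.18, edgeR). Col4a3 was next at −1.07 ± 0.37 (adjusted p = 0.22), then Col6a1 at −0.80 ± 0.28 (0.23), Col4a4 at −0.67 ± 0.25 (0.24) and Col6a3 at −0.80 ± 0.31 (0.25). In CPM, F-PRT and S-PRT did not overlap for Col4a3, Col4a5 and Col6a6, where 5.17% of all genes lay wholly lower and 5.45% wholly higher in F-PRT.

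For the fibrosis chains the same comparison gave −0.77 ± 0.37 for Col1a1, −0.70 ± 0.35 for Col1a2 and −0.76 ± 0.35 for Col3a1, with adjusted p of 0.33, 0.34 and 0.32 by edgeR. F-PRT 3 was the lowest of the 7 libraries and S-PRT 3 the highest in each of them, and the groups overlapped. These p-values do not show that the dose rates act alike.

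Ratios of chains within a library do not depend on scaling between libraries, and for 1 of the 4 pairs tried the irradiated and un-irradiated libraries did not overlap. The TPM ratio of Col1a1 to Col3a1 was 0.373, 0.349, 0.405 and 0.420 in the NR libraries. S-PRT libraries had 0.313, 0.286, 0.325 and 0.318, and F-PRT libraries 0.329, 0.348 and 0.260. Each irradiated library lay below each NR library. The means were 0.387 ± 0.032 (SD, n = 4), 0.311 ± 0.017 (n = 4) and 0.313 ± 0.047 (n = 3). An exact two-sided permutation test on the log2 ratio gave p = 0.029 for S-PRT against NR, the smallest 4 libraries against 4 allow, and p = 0.057 for F-PRT against NR, where 3 against 4 could reach 0.029. Adjusted over the 12 ratio tests both were 0.23, so neither passed.

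Neither chain was called on its own. Counted without length, the log2 ratio differed from NR by −0.21 in S-PRT and −0.22 in F-PRT, beside −0.31 and −0.31 in TPM. The effective length of Col3a1 ran from 4281 to 4989 bases in NR, from 4092 to 4547 bases in S-PRT, and from 3977 to 5046 bases in F-PRT, while that of Col1a1 was steady. Within type I, the Col1a1 to Col1a2 ratio was 0.680 ± 0.031 for NR, 0.727 ± 0.035 for S-PRT and 0.709 ± 0.064 for F-PRT, and Col4a1 to Col4a2 was 1.19 ± 0.061, 1.17 ± 0.098 and 1.14 ± 0.13. Col6a1 to Col6a2 was 0.946 ± 0.053, 0.926 ± 0.017 and 0.898 ± 0.16. The smallest exact p in these 3 pairs was 0.057, for Col1a1 to Col1a2 in S-PRT against NR (adjusted p = 0.23).

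**Figure D5:**
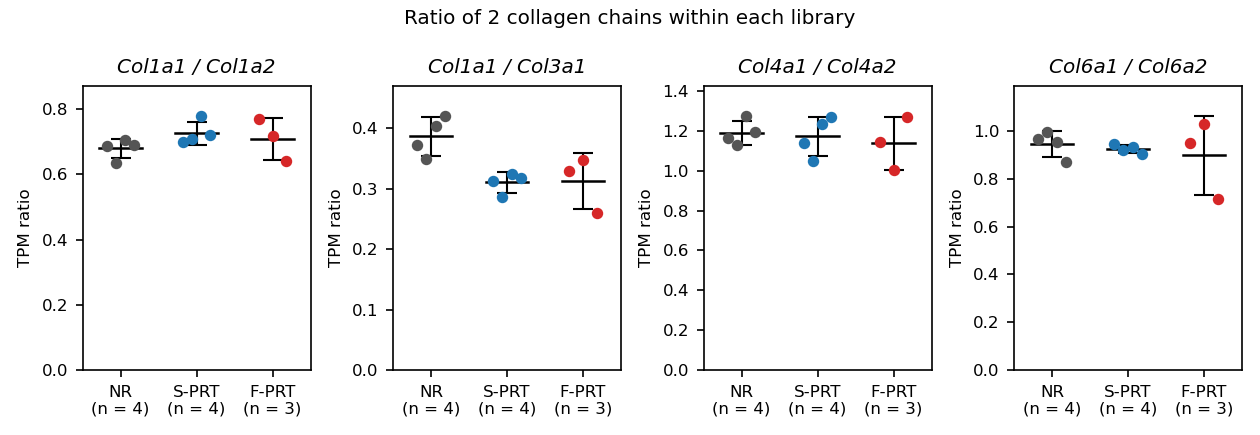
TPM ratio of 2 collagen chains within each library, with the group mean (bar) and SD (whiskers). The Col1a1 to Col3a1 ratio is 0.349 to 0.420 in NR and 0.260 to 0.348 in the 7 irradiated libraries; the other 3 ratios overlap between groups.

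Genes that make, trim, bind and break down collagen were taken as lists. In S-PRT against NR 0 of the 48 tested passed by edgeR (1.29% of all genes did), and 11 (22.9%) had an unadjusted p under 0.05, beside 18.3% of all genes. The smallest p of each list was for Serpinh1, the collagen chaperone of the endoplasmic reticulum, at 97.7, 99.6, 109 and 116 CPM in NR and 157, 138, 162 and 129 CPM in S-PRT (log2 fold change 0.47 ± 0.12, adjusted p = 0.075), for Ctsb, a lysosomal protease (0.24 ± 0.08, 0.15), for Itga2, a collagen-binding integrin subunit (1.23 ± 0.41, 0.14), and for Pcolce2, an enhancer of propeptide removal (−0.29 ± 0.13, 0.25). For Serpinh1 each S-PRT library was above each NR library.

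In F-PRT against NR 5 of the 48 passed (10.4%), a smaller share than the 19.5% of all genes called in either direction. Of 19 modification and folding genes, P4ha2, a subunit of prolyl 4-hydroxylase, was higher, at 25.1, 27.8, 26.5 and 29.5 CPM in NR and 39.1, 32.1 and 36.1 CPM in F-PRT (log2 fold change 0.39 ± 0.10, adjusted p = 0.023, edgeR). Tmem38b, an ion channel of the endoplasmic reticulum, was also higher (0.28 ± 0.09, adjusted p = 0.039), and Plod2, a lysyl hydroxylase, was lower (−0.28 ± 0.08, adjusted p = 0.035). Of 12 genes of propeptide removal and crosslinking, Tll2, a protease of the BMP1 family, was lower, at 1.17, 0.299, 0.859 and 1.11 CPM in NR and 0.266, 0.278 and 0.201 CPM in F-PRT (−1.81 ± 0.48, adjusted p = 0.023). Of 9 receptors, Itga1, a subunit of the integrin that binds type IV collagen, was lower (−0.59 ± 0.15, adjusted p = 0.022), and of 8 breakdown genes 0 passed, with the smallest p for Ctsl (0.34 ± 0.14, adjusted p = 0.096).

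Between the irradiated groups 0 of the 48 passed by edgeR, as 0% of all genes did, and 5 (10.4%) had an unadjusted p under 0.05, beside 15.9% of all genes. The smallest p of each list was for Ddr2, a collagen receptor kinase (−0.35 ± 0.10, adjusted p = 0.18), Loxl2, a crosslinking enzyme (−0.95 ± 0.33, 0.23), Mmp9, a gelatinase (−0.69 ± 0.37, 0.37), and Serpinh1 (−0.23 ± 0.13, 0.40).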

How the data were processed

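Poly(A) RNA of 11 heart apex libraries was sequenced with a directional kit, per the labels' protocols. Each deposited file is an RSEM gene table with expected counts, TPM and effective lengths, per the file headers. FastQC, cutadapt, STAR, RSEM and edgeR are named, without versions, in the submitters' processing notes, as are builds GRCm39 and mm10; the build behind the deposited tables was not given in the sources used here. TPM values were used as the authors deposited them. A name was found for 52081 of the 55414 gene IDs, and IDs without one held 0.072% to 0.356% of the counts. The members and lists were chosen with earlier results of these data known.

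Deposited expected counts were rounded and tested with edgeR 4.0.16 (R 4.3.3): quasi-likelihood test, TMM scaling, filterByExpr (minimum count 10, minimum total 15), 1 fit of all 11 libraries with 8 residual degrees of freedom, and Benjamini-Hochberg adjustment over 14556 genes. The SE is the absolute log2 fold change divided by the square root of F. CPM values carry the TMM factors. Whole counts are those within 1e-09 of a whole number.

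Named genes were, by rule, the 2 highest in mean TPM per class (4 for fibrillar), every called member, the 5 smallest p per comparison, the ratio pairs and, per list, every called gene or else the smallest p. Col4a6, Col5a2 and the untested members fall outside it and were named with their values seen. Alternatives were DESeq2 1.42.0, limma 3.58.1 on log2(TPM + 1) and log2(TPM + 0.1), other scalings, filters and library sets, and a replicate block.

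The labels do not say what the replicate numbers mark. Same-numbered NR and S-PRT libraries deviated together (correlations 0.265, 0.282, 0.363 and 0.184), which met the rule for treating them as pairs (each above 0.1). However, NR 2 correlated more with S-PRT 1 (0.443), NR 3 with S-PRT 4 (0.369) and NR 4 with S-PRT 3 (0.354). F-PRT did not meet the rule (from −0.446 to 0.233). No pair of libraries matched within sampling noise. The fits were tested on simulated data, where 67 of 14556 genes were changed 1.5-fold, 67 were changed 2-fold and 66 were changed 4-fold. For S-PRT against NR the fits recovered 37.3% of 1.5-fold, 65.7% of 2-fold and 92.4% of 4-fold changes. For F-PRT against NR the shares were 28.4%, 59.7% and 87.9%, so changes of these smaller sizes can go uncalled. Many more genes (2841) were called in the real F-PRT against NR, so the shares may differ there.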

Additional observations from a re-analysis of the deposited data

Results flagged for a closer look

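Col4a3 in S-PRT was the 1 value singled out among 58 sets of 4 libraries checked for a library far from the others. S-PRT 3 was at 3.415 CPM, and the other S-PRT libraries were at 2.14, 2.33 and 2.27 CPM, so that the gap to the next library was 0.855 of the whole range, above the critical value of 0.829. Chance alone singles out about 1 set in 20. S-PRT 3 was the highest of the 11 libraries for 13 of the 31 tested collagen genes. The part of this library's overall collagen level in the value was not tested.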

How the results depend on the processing

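Over 1494 values of the 24 named chains under other settings, 1344 kept their direction and side of the threshold, 40 lost a call, 9 gained one and 101 changed sign without being called in either setting; the cause of these was not tested. The largest main value that changed sign was 0.71 in size (Col26a1, F-PRT against S-PRT). Library-total scaling moved the median of all genes by −0.14 in S-PRT against NR and by 0.19 in F-PRT against S-PRT, and log2(TPM + 0.1) by −0.19 and 0.19.

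Collagen genes called in F-PRT against NR numbered 1 with an effective length offset, 0 with the length trend removed, library totals, either TPM test or the replicate block, 2 with the compared groups alone, 8 without a count filter, and 2 to 6 when 1 library was left out. In S-PRT against NR they numbered 0 except for 2 with the replicate block, and in F-PRT against S-PRT 0 throughout. All genes called in S-PRT against NR (188) numbered 697 with DESeq2, 95 with the length offset, 44 with the trend removed, 14 with library totals, 3 and 2 with limma on log2(TPM + 0.1) and log2(TPM + 1), 605 without a filter, 557 with the compared groups alone, 1371 with the replicate block and 26 to 444 with 1 library left out. In F-PRT against NR (2841) they numbered 493 with the trend removed, 134 with library totals, 74 and 71 with limma, 29 with the replicate block, whose pairing the libraries did not show, and 1382 to 3784 with 1 left out. In F-PRT against S-PRT (0) they numbered 3 with a minimum of 1 CPM, 134 with DESeq2, 2 with the length offset, 4 and 9 with limma, 71 without a filter and 0 to 103 with 1 left out, the 103 without F-PRT 3. The fit with compared groups alone has fewer samples; the cause of the other moves was not tested.

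Log2 ratios with expected counts for Col4a1 to Col4a2 were 0.0349 for S-PRT and 0.0710 for F-PRT, each against NR, and 0.0362 between the irradiated groups. For Col1a1 to Col3a1 in F-PRT against S-PRT the value was 0.0338 with TPM + 1 and 0.00339 with the replicate block. With 1 library left out, Col1a1 to Col1a2 ran from −0.00158 to 0.129 in F-PRT against NR and from −0.0982 to 0.0323 between the irradiated groups, where Col1a1 to Col3a1 ran from −0.0847 to 0.126. Col4a1 to Col4a2 ran from −0.0633 to 0.0280 for S-PRT and from −0.151 to 0.0193 for F-PRT, each against NR, and from −0.126 to 0.0436 between the irradiated groups. Col6a1 to Col6a2 ran from −0.199 to 0.0647 in F-PRT against NR and from −0.169 to 0.0941 between the irradiated groups. The Col1a1 to Col3a1 difference from NR stayed below 0 in each setting run, with an exact paired p of 0.125 in S-PRT, the smallest 4 pairs allow. At a minimum shortening of 5% or 20%, 4 and 3 chains had a shorter effective length in F-PRT than in NR. Depth limits the scarce chains: Col28a1 had 0 to 18 counts a library and Col4a6 2 to 35.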
